A study of Mus musculus with 16 samples.

Results

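Nr4a1, Nr4a2, Nr4a3, Egr1, Egr2, Egr3, Ier2 and Atf3 are 8 transcription factors and regulators of the immediate early type, and they were chosen by gene symbol from the 24028 genes of the count table. All 8 were found and all 8 passed the filter on low counts, which 17414 genes passed. The RNA came from CD8 T cells that had infiltrated mammary pad tumours of TS/A, a murine mammary adenocarcinoma line, in BALB/c mice; live cells positive for CD45.2 and CD8 and negative for CD4 were sorted. There were 4 groups of 4 libraries: entinostat at day 17 after tumour injection, vehicle at day 17, entinostat at day 10 and vehicle at day 10. Entinostat, which inhibits histone deacetylases of class I, was given at 20 mg/kg daily from day 7, so dosing had gone on for 10 days at day 17 and for 3 days at day 10. No genetic change is named for the mice, all of which carried a tumour, and the labels do not say whether each library is from an animal of its own. The p-values therefore measure the spread between these libraries, which may be technical.

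Immediate early genes are transcribed within minutes of a stimulus, from regulators already in the cell. In T cells the antigen receptor switches them on through calcium, calcineurin and NFAT and through the Ras and ERK kinases, which act on serum response factor, while CREB carries signals from cyclic AMP and calcium. NR4A proteins are orphan nuclear receptors linked to tolerance and exhaustion of tumour-infiltrating T cells, EGR2 and EGR3 are zinc finger factors linked to anergy, and ATF3 is a bZIP factor of the stress response. Cell dissociation during sorting is known to induce the same kind of gene.

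Total counts ran from 554593 to 3530961 in entinostat day 17 libraries, from 2842099 to 6975904 in vehicle day 17 libraries, from 2639019 to 5709243 in entinostat day 10 libraries and from 3640768 to 4227704 in vehicle day 10 libraries. The library of 554593 counts was entinostat day 17 replicate 3, where Nr4a3 rested on 14 counts, and Nr4a1 on 201. Counts of Actb, an abundant gene, spanned 1618 to 3265, a far narrower range than that of the totals, so they rose with depth by less than in proportion. CD8 T cell genes were present in all libraries, with Cd8a at 442, 370, 331 and 419 CPM (group means; CPM are counts scaled by TMM to a common library total) in entinostat day 17, vehicle day 17, entinostat day 10 and vehicle day 10 libraries. The summed levels of markers of several other cell types differed between groups. That of 12 plasmacytoid dendritic cell markers, none of them at 0 throughout, was 773 to 996 CPM in entinostat day 17, 2989 to 3688 CPM in vehicle day 17, 756 to 1243 CPM in entinostat day 10 and 1747 to 3403 CPM in vehicle day 10 libraries. Means of the macrophage, B cell and tumour epithelial sums were also lower with entinostat than with vehicle at both days. Neutrophil markers went the other way, with 7 of 8 in the table and none at 0 throughout, and summed to 42.7 to 49.8 CPM in entinostat day 17, 2.41 to 31.9 CPM in vehicle day 17, 12.3 to 91.7 CPM in entinostat day 10 and 2.05 to 4.18 CPM in vehicle day 10 libraries. The part of these cells in the results that follow was not tested, and a fall through fewer cells of a type and one through less RNA per cell cannot be told apart in bulk RNA.

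Every call among the 8 genes was of Nr4a1 or Nr4a3, both of the NR4A family, and no test set that family against the other 5 genes. Nr4a3 was lower with entinostat at day 17, Nr4a1 was lower at day 17 than at day 10 with entinostat and with vehicle, and no change of Nr4a2 passed the test. All 3 encode nuclear receptors that share a DNA-binding domain and act without a known natural ligand. On GRCm38, Nr4a1 lies at chr15:101254269-101274795 (plus strand), Nr4a2 at chr2:57106830-57124003 (minus strand) and Nr4a3 at chr4:48045153-48086447 (plus strand). The sequence before a RefSeq transcription start is shown for each, since the 3 genes share a feature there that the choice of genes did not use. Capitals mark matches on either strand to TGACG, the core that CREB and ATF factors bind, and to GCGNGGGCG, the motif of EGR factors; RefSeq windows are of GRCm38.p6. They are printed 5′ to 3′ on the gene's strand and stop at the first base of an annotated exon.
Nr4a1 (chr15:101266596-101266845, plus): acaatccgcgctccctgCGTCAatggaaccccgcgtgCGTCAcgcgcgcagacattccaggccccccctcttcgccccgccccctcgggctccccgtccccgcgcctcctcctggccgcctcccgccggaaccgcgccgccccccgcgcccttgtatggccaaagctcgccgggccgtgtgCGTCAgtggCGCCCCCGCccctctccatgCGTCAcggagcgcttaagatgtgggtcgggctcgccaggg
Nr4a2 (chr2:57124004-57124253, minus): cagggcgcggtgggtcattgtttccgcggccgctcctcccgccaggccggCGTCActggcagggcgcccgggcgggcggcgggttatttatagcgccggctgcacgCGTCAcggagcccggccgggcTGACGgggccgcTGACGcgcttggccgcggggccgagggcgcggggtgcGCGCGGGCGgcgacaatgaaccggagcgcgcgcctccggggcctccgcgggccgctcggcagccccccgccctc
Nr4a3 (chr4:48045055-48045152, plus): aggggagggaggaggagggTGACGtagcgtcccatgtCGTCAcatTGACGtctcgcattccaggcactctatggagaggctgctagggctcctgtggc
Each of the 3 windows of 250 bases held TGACG 4 times, counting both strands; in Nr4a3 the last match lies in an annotated exon and is not printed. Of 32851 promoter windows of the same length in the RefSeq table, 17.8% held TGACG and 0.137% held at least 4. The cut of 4 equals the number these 3 windows held, and TGACG was among several motifs searched, so 0.137% is not a test. The full palindrome TGACGTCA, which contains the core, is in 1.55% of windows and in none of these 3. The EGR motif was in the Nr4a1 and Nr4a2 windows, 60 and 74 bases before the start, and in 4.7% of all windows. Neither NBRE (AAAGGTCA, the NR4A monomer site, 1.34% of windows) nor AP-1 (TGANTCA, 6.75%) was found in them. These matches describe the letters only.

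Nr4a3 had 49.2, 43.9, 23.2 and 24.8 CPM in the 4 entinostat day 17 libraries, against 94.9, 51.1, 71.5 and 87.8 CPM in the vehicle day 17 libraries. Every entinostat library was below every vehicle library, with replicate 1 of entinostat and replicate 2 of vehicle nearest to each other. The log2 fold change was −1.05 ± 0.26 (SE, 95% interval −1.60 to −0.50; adjusted p = 0.00981, edgeR quasi-likelihood test with Benjamini-Hochberg adjustment, as for all adjusted p-values here). Without entinostat day 17 replicate 4 it was −0.85 with an adjusted p of 0.0543, without the shallow replicate 3 it was −0.93 with an adjusted p of 0.0337, and with cyclic loess scaling, added after the data were seen, it was −0.74 with an adjusted p of 0.145. Of the 8 genes, 1 was called in this comparison, where 18.3% of all genes tested were called and 13.0% were called lower. Among the 9772 genes of at least 16 CPM on average, a range that holds all 8, 25.2% were called and 21.9% were called lower. A share of 1 in 8 is near that background.

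At day 10 Nr4a3 had 84.0, 69.0, 100.8 and 67.4 CPM in entinostat libraries, against 155.5, 90.7, 144.2 and 87.1 CPM in vehicle libraries. The groups overlapped, since vehicle replicates 2 and 4 lay below entinostat replicate 3. The log2 fold change was −0.57 ± 0.24 (SE, 95% interval −1.09 to −0.06; adjusted p = 0.110, edgeR) and did not pass. The difference between the 2 entinostat effects, day 17 over day 10, was −0.47 (95% interval −1.22 to 0.27, adjusted p = 0.617, edgeR), so the effects were not shown to differ between days. Over time the entinostat libraries had a log2 fold change of −1.12 ± 0.26 (SE, day 17 over day 10, adjusted p = 0.00803) with no overlap, and −0.84 with an adjusted p of 0.112 under cyclic loess scaling. With vehicle it was −0.64 ± 0.24 (SE, adjusted p = 0.114) with overlap, and that comparison passed without vehicle day 17 replicate 1, at −0.79 with an adjusted p of 0.0497. Group means were 35.3 ± 13.2 CPM in entinostat day 17, 76.3 ± 19.5 CPM in vehicle day 17, 80.3 ± 15.6 CPM in entinostat day 10 and 119 ± 35.5 CPM in vehicle day 10 libraries (SD, n = 4 each). Of neighbours in that order, only entinostat day 17 and vehicle day 17 did not overlap.

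**Figure D1:**
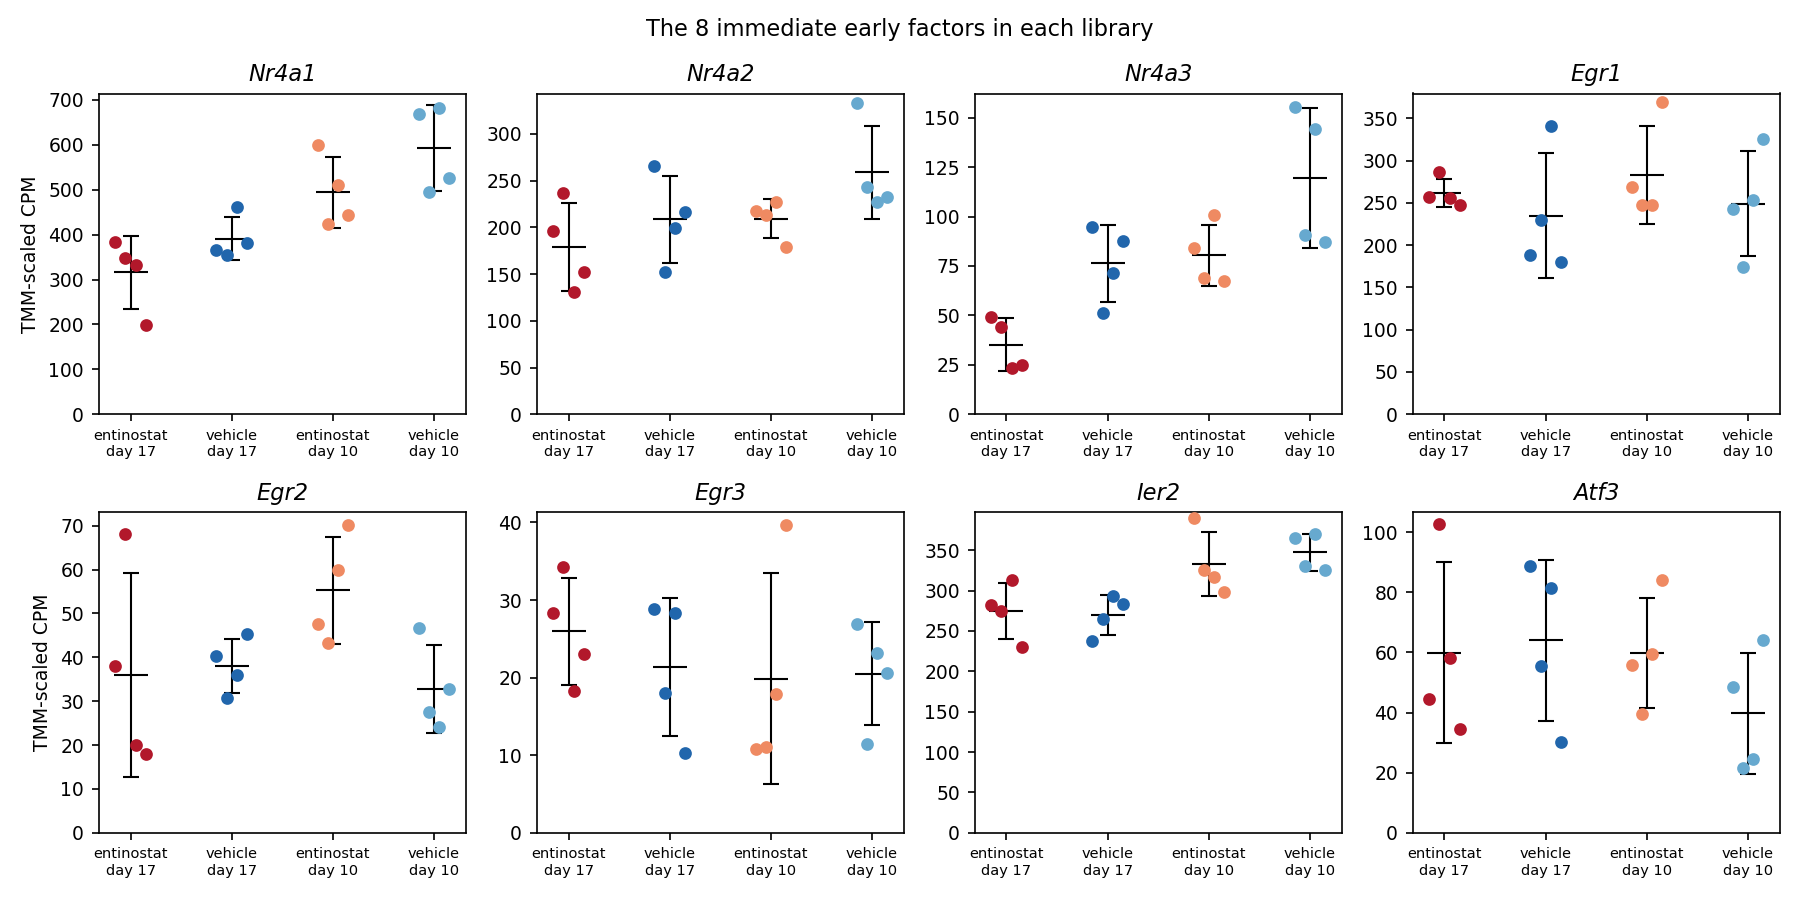
TMM-scaled CPM (vertical axes, from 0) of each of the 8 genes in every library (points), by group, with the mean and SD of 4 libraries (bars). All 4 entinostat day 17 points of Nr4a3, at 23.2 to 49.2 CPM, lie below the other groups, while the groups of Egr1 cover one another.

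Nr4a1 had 384.6, 347.3, 333.4 and 197.8 CPM in entinostat day 17 libraries, against 599.0, 424.5, 511.6 and 443.2 CPM in entinostat day 10 libraries. The groups did not overlap, and entinostat day 17 replicate 4 was far below the other 3. Day 17 over day 10, its log2 fold change was −0.65 ± 0.17 (SE, 95% interval −1.01 to −0.28; adjusted p = 0.0181, edgeR). It no longer passed without entinostat day 10 replicate 1 (adjusted p = 0.0578) or in a fit of only the groups compared (adjusted p = 0.0549). In vehicle libraries Nr4a1 had 364.8, 355.8, 461.2 and 382.0 CPM at day 17, against 669.1, 495.9, 683.1 and 525.3 CPM at day 10. Again the groups did not overlap, and 3 of the 4 day 17 libraries lay within a narrow band. The log2 fold change of −0.60 ± 0.17 (SE, 95% interval −0.96 to −0.24) had an adjusted p of 0.0469 in edgeR, just inside the threshold of 0.05. The call was lost with RLE scaling (adjusted p = 0.0545), with library size alone (0.105), with a minimum count of 50 (0.0822), among genes whose mean CPM exceeded the 95th percentile of olfactory and vomeronasal receptor genes (0.0783) and with cyclic loess scaling (0.309, log2 fold change −0.25), and without any of 6 single libraries, namely vehicle day 17 replicates 2 and 4, entinostat day 10 replicate 3 and vehicle day 10 replicates 1, 2 and 3, where the adjusted p reached 0.144.

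Of the 8 genes, 2 were called over time with entinostat, Nr4a1 and Nr4a3, both lower, where 13.7% of all genes were called and 10.5% were called lower. With vehicle 1 was called, where 5.52% of all genes were called and 3.63% were called lower. Among genes of at least 16 CPM, 21.5% were called and 18.2% called lower with entinostat, and 7.65% and 6.40% with vehicle. Groups did not overlap for 2 of the 8 genes with entinostat, against 21.5% of all genes, and for 2 of the 8 with vehicle (Nr4a1 and Ier2), against 13.6% of all genes. Between entinostat and vehicle the groups of 1 gene did not overlap at day 17, against 24.4% of all genes, and of 0 at day 10, against 20.2%. The summed level of 12 stromal and endothelial markers, none at 0 throughout, was 305 to 698 CPM in entinostat day 17 and 161 to 605 CPM in entinostat day 10 libraries, and 385 to 1893 CPM in vehicle day 17 and 188 to 561 CPM in vehicle day 10 libraries; its part in the fall of Nr4a1 over time was not tested. Nr4a1 was a gene of high level (above 99.3% of tested genes by mean CPM). It had 201 counts (333.4 CPM) in the shallowest library, entinostat day 17 replicate 3. In the deepest, vehicle day 17 replicate 1, it had 2425 counts (364.8 CPM). Actb, which rose with depth by less than in proportion, had 1618 and 3265 counts in these libraries. The part of depth in the fall of Nr4a1 was not tested.

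Entinostat libraries had lower mean Nr4a1 than vehicle libraries at both days, but neither difference passed. The log2 fold change was −0.31 (95% interval −0.68 to 0.05, adjusted p = 0.221) at day 17 and −0.26 (95% interval −0.62 to 0.09, adjusted p = 0.280) at day 10. Mean Nr4a1 was lowest in entinostat day 17 libraries (316 ± 81.6 CPM), then in vehicle day 17 (391 ± 48.1 CPM), entinostat day 10 (495 ± 79.0 CPM) and vehicle day 10 libraries (593 ± 96.5 CPM; SD, n = 4 each), and each neighbour in that order overlapped the next. Nr4a2 had the same order of group means, from 179 ± 47.0 CPM in entinostat day 17 and 208 ± 46.9 CPM in vehicle day 17 to 209 ± 20.7 CPM in entinostat day 10 and 259 ± 49.9 CPM in vehicle day 10 libraries (SD, n = 4 each). All its neighbours overlapped. Its log2 fold changes lay between −0.31 and −0.19 in the 4 comparisons of groups, with 95% intervals that all held 0.

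Levels can be set between genes only per length. Divided by the length of their annotated exons (3509, 4059 and 5987 bases), Nr4a1, Nr4a2 and Nr4a3 summed to 140 ± 32.3 CPM per kb in entinostat day 17, 176 ± 19.8 CPM per kb in vehicle day 17, 206 ± 27.3 CPM per kb in entinostat day 10 and 253 ± 40.4 CPM per kb in vehicle day 10 libraries (SD, n = 4 each). Nr4a1 made up 64.0 ± 6.65% of that sum in entinostat day 17, 63.7 ± 6.03% in vehicle day 17, 68.3 ± 2.79% in entinostat day 10 and 66.9 ± 3.07% in vehicle day 10 libraries. Nr4a3 was the smallest share, at 4.14 ± 0.846% in entinostat day 17, 7.21 ± 1.41% in vehicle day 17, 6.50 ± 0.816% in entinostat day 10 and 7.76 ± 1.14% in vehicle day 10 libraries. Its entinostat day 17 range of 2.96% to 4.94% did not reach the lowest library of any other group, which was 5.79% in vehicle day 17, 5.89% in entinostat day 10 and 6.56% in vehicle day 10. These shares are given without a test.

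**Figure D2:**
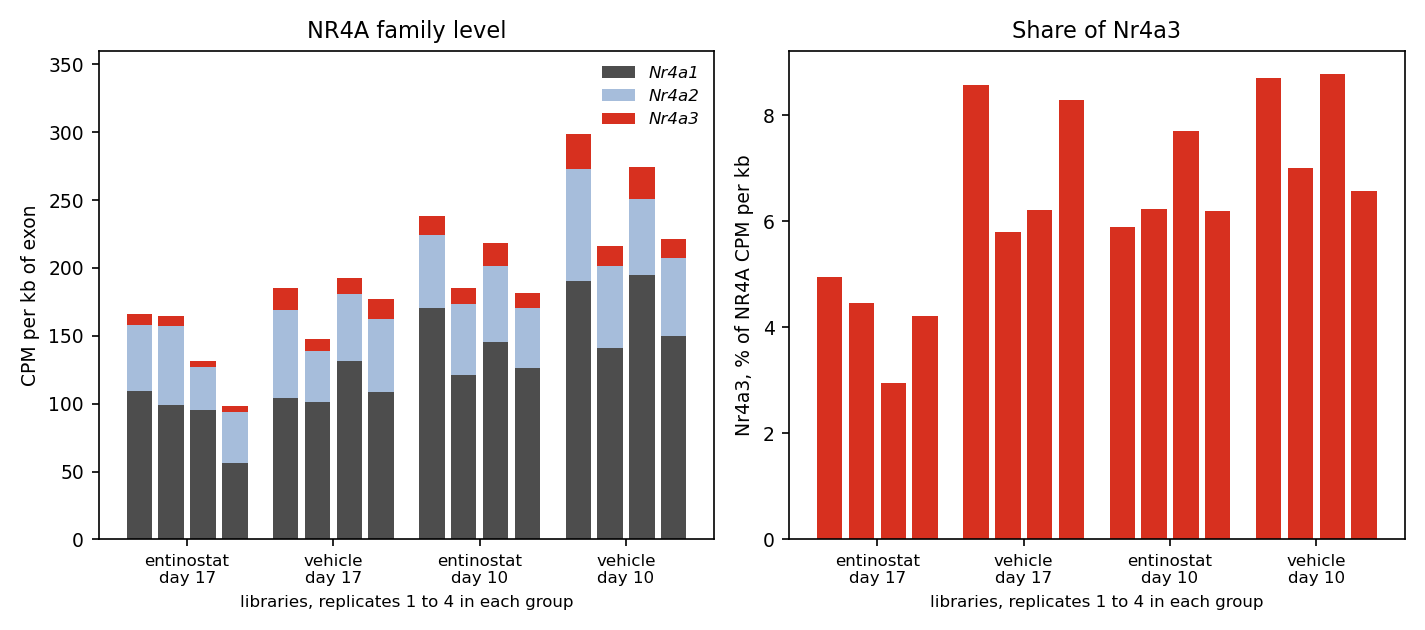
Left, CPM per kb of exon of the 3 NR4A genes stacked for each library. Right, the share of Nr4a3 in that sum (%). Groups run as entinostat day 17, vehicle day 17, entinostat day 10 and vehicle day 10, with replicates 1 to 4 in each; the 4 entinostat day 17 shares of 2.96% to 4.94% are the lowest bars.

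The EGR genes did not pass the test in any comparison. EGR1 is an early growth response factor of the ERK pathway, and EGR2 and EGR3 are induced by NFAT downstream of the antigen receptor. At day 10 Egr2 had 47.6, 43.2, 59.8 and 70.2 CPM in entinostat libraries, against 46.7, 27.5, 24.0 and 32.7 CPM in vehicle libraries. The groups overlapped only through vehicle replicate 1, which lay above entinostat replicate 2. Egr2 thus had a log2 fold change of 0.76 ± 0.33 (SE, 95% interval 0.07 to 1.44; adjusted p = 0.113, edgeR) and did not pass. In a fit of only the day 10 groups it was 0.86 with an adjusted p of 0.0386, and Egr2 was then the only gene of the 8 called. At day 17 Egr2 had 37.9, 68.1, 19.9 and 18.0 CPM in entinostat libraries, against 40.3, 30.7, 36.0 and 45.3 CPM in vehicle libraries. Entinostat replicate 2 was above all vehicle libraries and replicates 3 and 4 below them, and the log2 fold change of −0.02 (95% interval −0.72 to 0.67) changed sign with the scaling. Over time with entinostat it was −0.56 ± 0.33 (SE, adjusted p = 0.291), and −1.10 with an adjusted p of 0.0197 without entinostat day 17 replicate 2. With vehicle over time it was 0.22 (95% interval −0.47 to 0.90).

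Egr2 lies at chr10:67535475-67542188 (GRCm38, plus strand). A RefSeq window before a start of the gene is shown because the NR4A windows lack its motif. Capitals mark the CArG box of serum response factor, found in 1.47% of all windows, and the TGACG core on both sides of it.
Egr2 (chr10:67537619-67537868, plus): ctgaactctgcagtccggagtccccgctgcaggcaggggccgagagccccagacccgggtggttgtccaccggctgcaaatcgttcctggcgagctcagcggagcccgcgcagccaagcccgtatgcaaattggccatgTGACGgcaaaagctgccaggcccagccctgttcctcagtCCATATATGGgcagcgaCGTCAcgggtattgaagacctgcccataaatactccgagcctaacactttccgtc
Of the 5 Egr2 windows in the table, 4 held the CArG box, 3 of them overlapping each other. The Atf3 window held TGACG in 1 place, 7 bases before the start, where the match begins at the first base of an annotated exon.

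Egr1 (chr18:34859823-34864984, GRCm38) had no change that passed the test. It had 257.2, 285.9, 255.5 and 247.3 CPM in entinostat day 17 libraries, against 188.0, 230.3, 340.5 and 179.7 CPM in vehicle day 17 libraries. The entinostat libraries lay inside the range of the vehicle libraries. At day 10 it had 268.5, 247.9, 247.9 and 368.9 CPM in entinostat libraries, against 242.6, 174.7, 253.6 and 325.8 CPM in vehicle libraries. Its log2 fold change against vehicle was 0.16 (95% interval −0.26 to 0.57) at day 17 and 0.19 (95% interval −0.22 to 0.60) at day 10. Over time it was −0.12 (95% interval −0.53 to 0.30) with entinostat and −0.09 (95% interval −0.50 to 0.32) with vehicle. Egr3 (chr14:70077203-70082614, GRCm38) was the lowest of the 8 per kb, at group means of 4.51 to 5.89 CPM per kb, and had 18.2 to 34.2 CPM in entinostat day 17, 10.3 to 28.9 CPM in vehicle day 17, 10.8 to 39.7 CPM in entinostat day 10 and 11.4 to 26.9 CPM in vehicle day 10 libraries. Its 95% intervals reached from −0.59 to 1.19 at day 17 and from −0.91 to 0.85 at day 10, against vehicle, so changes of that size would not have been seen. Per kb, Egr1 made up 75.5 to 79.3% of the summed EGR level as a group mean.

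**Figure D3:**
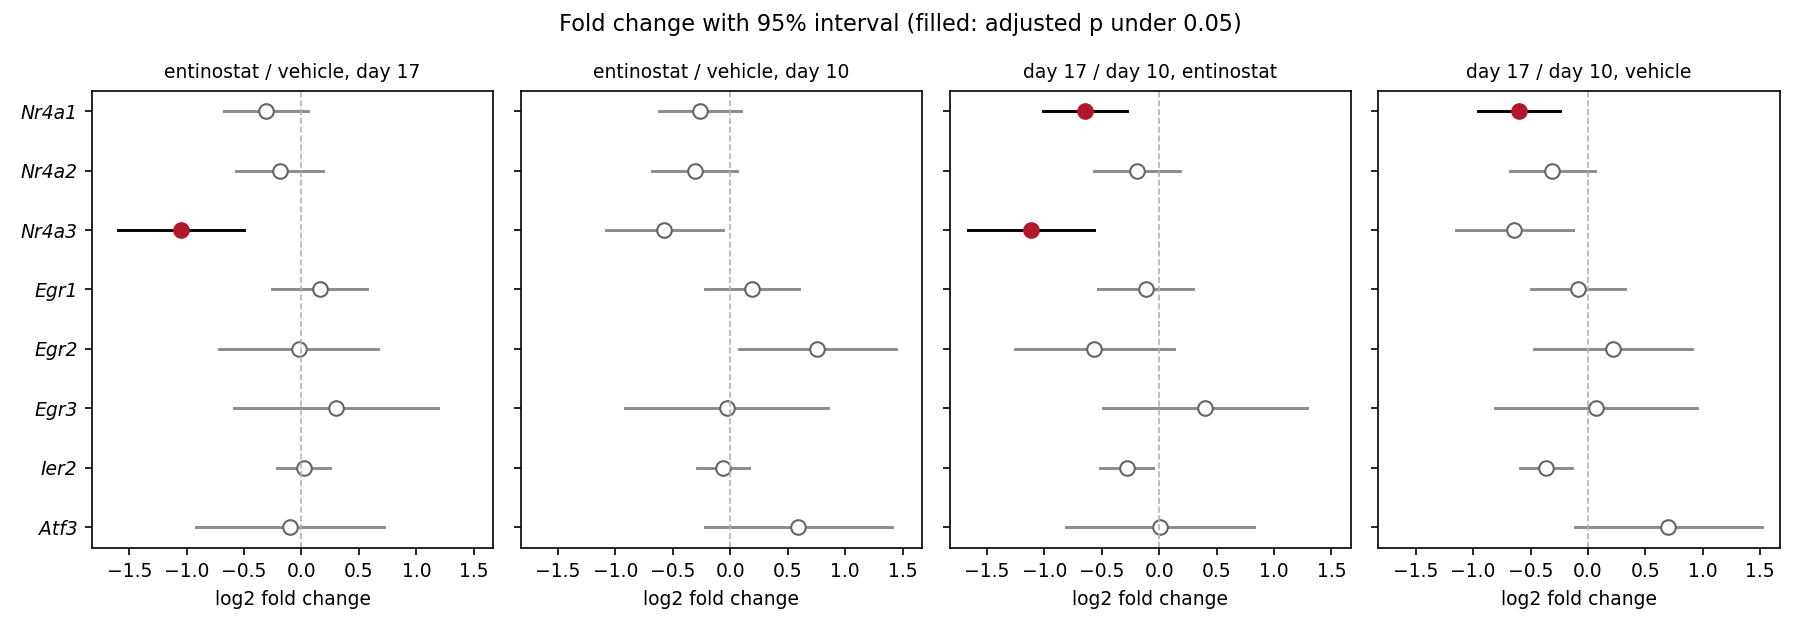
Log2 fold change (horizontal axes) with its 95% interval for each gene, in entinostat over vehicle at day 17 and day 10 and in day 17 over day 10 with entinostat and with vehicle. Filled points, with an adjusted p under 0.05, are Nr4a3 at day 17 (−1.05), Nr4a3 (−1.12) and Nr4a1 (−0.65) over time with entinostat, and Nr4a1 over time with vehicle (−0.60).

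Ier2 encodes a short-lived nuclear regulator of the immediate early response. It had 237.5, 264.4, 293.4 and 282.9 CPM in vehicle day 17 libraries, against 364.8, 330.2, 369.7 and 325.0 CPM in vehicle day 10 libraries. The groups did not overlap, but the log2 fold change of −0.37 ± 0.11 (SE, 95% interval −0.59 to −0.14) had an adjusted p of 0.0511 in edgeR, just outside the threshold. It passed in DESeq2 (adjusted p = 0.0308), with the summed level of olfactory and vomeronasal receptor reads as a covariate, added after the data were seen (0.0231), and without any of 10 single libraries. Other alternatives went the other way, with a log2 fold change as weak as −0.081 and an adjusted p as high as 0.666. With single libraries left out the adjusted p went up to 0.144. With entinostat Ier2 had 281.7, 274.4, 313.5 and 230.0 CPM at day 17, against 389.3, 324.9, 317.3 and 298.6 CPM at day 10. Here day 17 replicate 3 lay above day 10 replicate 4, and the log2 fold change was −0.28 ± 0.11 (SE, adjusted p = 0.0935). It passed without the shallow day 17 replicate 3 (adjusted p = 0.0434) and with the receptor covariate (0.0325). In other alternatives the log2 fold change was as weak as −0.080 and the adjusted p as high as 0.631. Against vehicle its 95% interval ran from −0.21 to 0.25 at day 17 and from −0.29 to 0.16 at day 10, the narrowest of the 8. Ier2 lies at chr8:84661331-84662852 (GRCm38).

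Atf3 had 44.4, 102.6, 58.1 and 34.6 CPM in entinostat day 17 libraries, against 88.8, 55.6, 81.6 and 30.2 CPM in vehicle day 17 libraries. At day 10 it had 55.8, 39.6, 59.5 and 84.0 CPM in entinostat libraries, against 48.6, 21.5, 24.6 and 64.1 CPM in vehicle libraries. The groups overlapped at both days, and the highest library of each group had at least 2 times the CPM of its lowest. The log2 fold change against vehicle was −0.10 (95% interval −0.91 to 0.72) at day 17 and 0.59 (95% interval −0.22 to 1.41, adjusted p = 0.287) at day 10. Over time with vehicle it was 0.70 (95% interval −0.12 to 1.51, adjusted p = 0.259), and with entinostat 0.01. Atf3 lies at chr1:191170296-191218039 (GRCm38, minus strand), where the small RNA gene Gm24748 overlaps it on the other strand. That overlap is with the whole span of Atf3, introns included, and was not checked against its exons. The libraries do not mark strand, so reads from any exon bases the pair shares could not be told apart.

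At day 10 against vehicle 0 of the 8 were called, where 14.6% of all genes were called by edgeR (2534 genes) and 15.1% of those of at least 16 CPM. At an unadjusted p under 0.05 there were 2, Nr4a3 and Egr2, and DESeq2 called 0. With the replicate number as a block the count of all genes called fell to 1561, and to 1160 with a replicate block within each day, with no change in a call of the 8. In the difference of the entinostat effects between days 0 were called, where 0.471% of all genes were called. There 0 had an unadjusted p under 0.05, and DESeq2 called 0.

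Libraries of a group differed in which genes were high. The lowest library for Atf3 was also the lowest for Egr1 in 4 of 4 groups, namely entinostat day 17 replicate 4, vehicle day 17 replicate 4, entinostat day 10 replicate 2 and vehicle day 10 replicate 2. The highest was the same in 3 of 4 groups. Entinostat day 10 replicate 4, the highest of its group for Egr1, Egr2, Egr3 and Atf3, lay above the group's mean log2 CPM by 0.40 for Egr1, 1.19 for Egr3 and 0.54 for Atf3, and was the lowest for Nr4a2 and Nr4a3. It was the deepest library of its group, with 5709243 counts, and had the fewest olfactory and vomeronasal receptor reads, at 598 CPM. Its marker sums were the group's highest for stromal and endothelial (605 CPM), plasmacytoid dendritic (1243 CPM), macrophage (174 CPM), neutrophil (91.7 CPM) and tumour epithelial cells (159 CPM). That of B cells (102 CPM) was not the highest, and that of CD8 T cells (3267 CPM) was the lowest. The part of these cells in the highs of this library was not tested. Nr4a2 and Nr4a3 shared the highest library in 3 of 4 groups and the lowest in 3 of 4. Nr4a3 and Atf3 shared the highest in 1 and the lowest in 0.

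**Figure D4:**
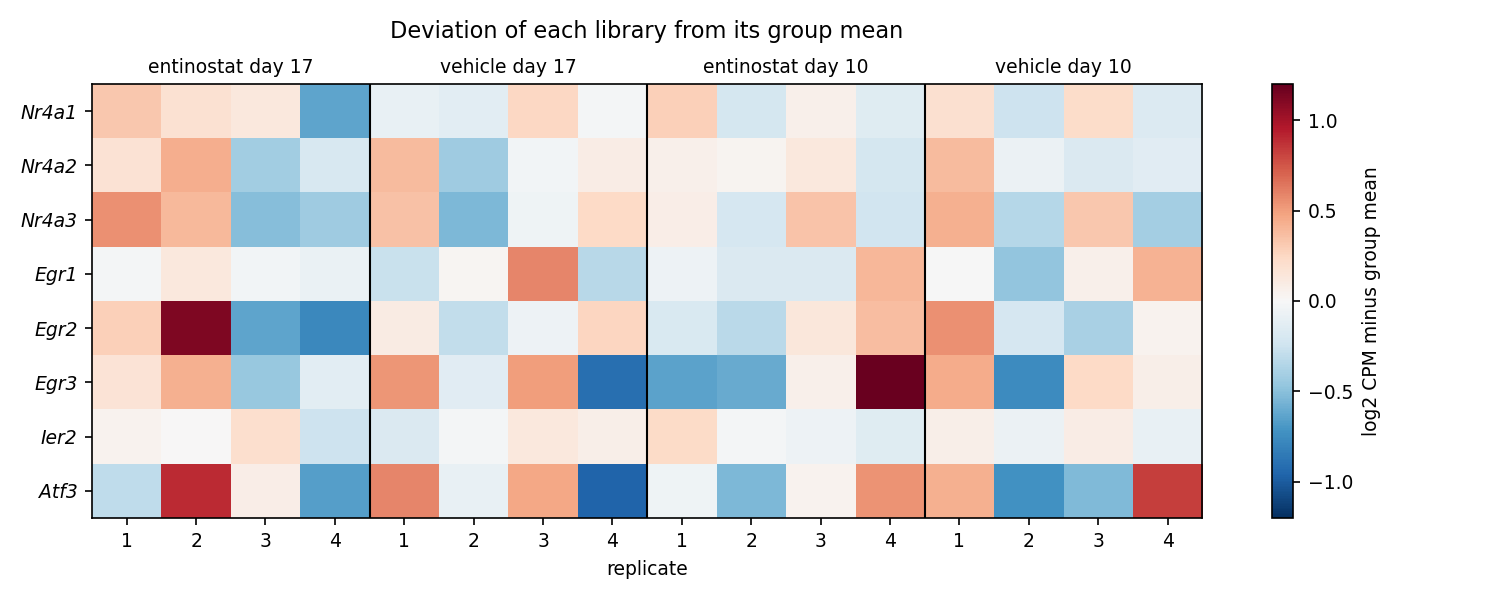
Log2 CPM of each gene in each library minus the mean of its group (colour scale, red above and blue below the mean); columns are replicates 1 to 4 of entinostat day 17, vehicle day 17, entinostat day 10 and vehicle day 10. Egr3 in entinostat day 10 replicate 4 stands at 1.19, and Egr1, Egr3 and Atf3 are red together there.

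Among genes of at least 16 CPM, those closest to Nr4a3 over the 16 libraries were Tinf2 (Pearson r of log2 CPM 0.96), Rel (0.95) and Spty2d1 (0.94), and Nr4a1 was closest to Nfkbid (0.94). Ier2 was closest to Saraf, Pim1 and Dusp5 (0.95 each). The closest gene to Egr1 was Calu, at a lower 0.73, and to Atf3 Lrrc20, at 0.77. For the mean standardised level of the 8 it was Ppp1r10 (0.89), and at the other end Eif2a (−0.74). These values describe 16 libraries that share scaling, groups and depth.

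The genes that follow are read against the shares called over all genes. Of genes of at least 16 CPM, 21.9% were lower and 3.26% higher with entinostat at day 17, 11.9% and 3.16% at day 10, 18.2% and 3.39% over time with entinostat, and 6.40% and 1.26% over time with vehicle. Of all genes tested, 13.0% were lower and 5.29% higher at day 17, 6.93% and 7.63% at day 10, 10.5% and 3.26% over time with entinostat, and 3.63% and 1.89% over time with vehicle. Calls among expressed genes were thus mostly lower to begin with.

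Other immediate early genes were called lower over time in a larger share than genes of at least 16 CPM, but not with entinostat at day 10. Of 35 tested genes of a list without the 8, 1 was higher and 10 were lower with entinostat at day 17, 0 and 2 at day 10, 0 and 14 over time with entinostat, and 0 and 13 over time with vehicle. The shares lower were 28.6%, 5.71%, 40% and 37.1% in that order, and 34 of the 35 were of at least 16 CPM. Their median log2 fold changes were −0.16, −0.09, −0.30 and −0.37 in that order, beside −0.01, 0.06, 0.03 and 0.13 over all genes tested and −0.22, −0.17, −0.16 and −0.10 over genes of at least 16 CPM, so against vehicle the list's medians were less negative than those of genes at that level. With library size alone the median over all genes was 0.14, 0.22, 0.15 and 0.27, so all directions here are relative to the TMM scaling. Sik1, a kinase induced by CREB, averaged 92.4 ± 20.9 CPM in entinostat day 17 and 192 ± 23.1 CPM in vehicle day 17 libraries (SD, n = 4 each; log2 fold change −1.02 ± 0.13 SE, adjusted p = 3.54e-05, edgeR). Per1, a clock gene that CREB also induces, fell by 1.08 on the log2 scale in the same comparison (adjusted p = 4.74e-05). At day 10 the same 2 genes were the ones called lower with entinostat, Sik1 at −0.58 (adjusted p = 0.00818) and Per1 at −0.45 (adjusted p = 0.0350). Fosl2, an AP-1 subunit, averaged 214 ± 17.5 CPM in entinostat day 17 and 687 ± 63.6 CPM in entinostat day 10 libraries (SD, n = 4 each; log2 fold change −1.69 ± 0.12 SE, adjusted p = 2.80e-07), and 348 ± 43.5 CPM in vehicle day 17 and 572 ± 68.8 CPM in vehicle day 10 libraries. It was the 1 gene of the list whose entinostat effect differed between days (−0.97, adjusted p = 0.0146). Fos did not pass in any of these comparisons, with log2 fold changes between −0.22 and 0.03.

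Regulators upstream of the 8 genes were tested in 3 lists, whose calls were all lower, as were most calls among genes of their level. Of 7 genes of the CREB family and its coactivators, 0 were higher and 3 lower with entinostat at day 17, 0 and 1 at day 10, 0 and 5 over time with entinostat, and 0 and 2 over time with vehicle. The shares lower were 42.9%, 14.3%, 71.4% and 28.6% in that order, with median log2 fold changes of −0.42, −0.20, −0.65 and −0.35. Crem, itself a target and a modulator of CREB, averaged 155 ± 25.8 CPM in entinostat day 17 and 308 ± 28.1 CPM in entinostat day 10 libraries (SD, n = 4 each; log2 fold change −1.01 ± 0.12 SE, adjusted p = 3.46e-05). The coactivator gene Crtc2 was lower with entinostat at day 17 (−0.61 ± 0.11 SE, adjusted p = 0.000732). Of 14 calcium and NFAT genes, 0 were higher and 5 lower at day 17, 0 and 3 at day 10, 0 and 6 over time with entinostat, and 0 and 2 over time with vehicle. As shares, 35.7%, 21.4%, 42.9% and 14.3% were lower, with medians of −0.32, −0.24, −0.43 and −0.34. Orai2, a subunit of the calcium channel that opens on store depletion, averaged 84.8 ± 14.5 CPM in entinostat day 17 and 207 ± 12.8 CPM in vehicle day 17 libraries (SD, n = 4 each; log2 fold change −1.27 ± 0.12 SE, adjusted p = 1.75e-06). Nfatc2, a main NFAT of T cells, was at −0.49 ± 0.14 (SE, adjusted p = 0.0214). Of 18 genes of the ERK and serum response factor pathway, 0 were higher and 3 lower at day 17, 0 and 4 at day 10, 0 and 3 over time with entinostat, and 0 and 4 over time with vehicle. As shares, 16.7%, 22.2%, 16.7% and 22.2% were lower, with medians of −0.23, −0.30, −0.09 and −0.26, so the shares at day 17 and over time with entinostat were below the 21.9% and 18.2% of genes of at least 16 CPM. Elk4, a partner of serum response factor, was among those lower in each of the 4 comparisons (log2 fold changes −0.59, −0.39, −0.68 and −0.48 in that order).

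**Figure D5:**
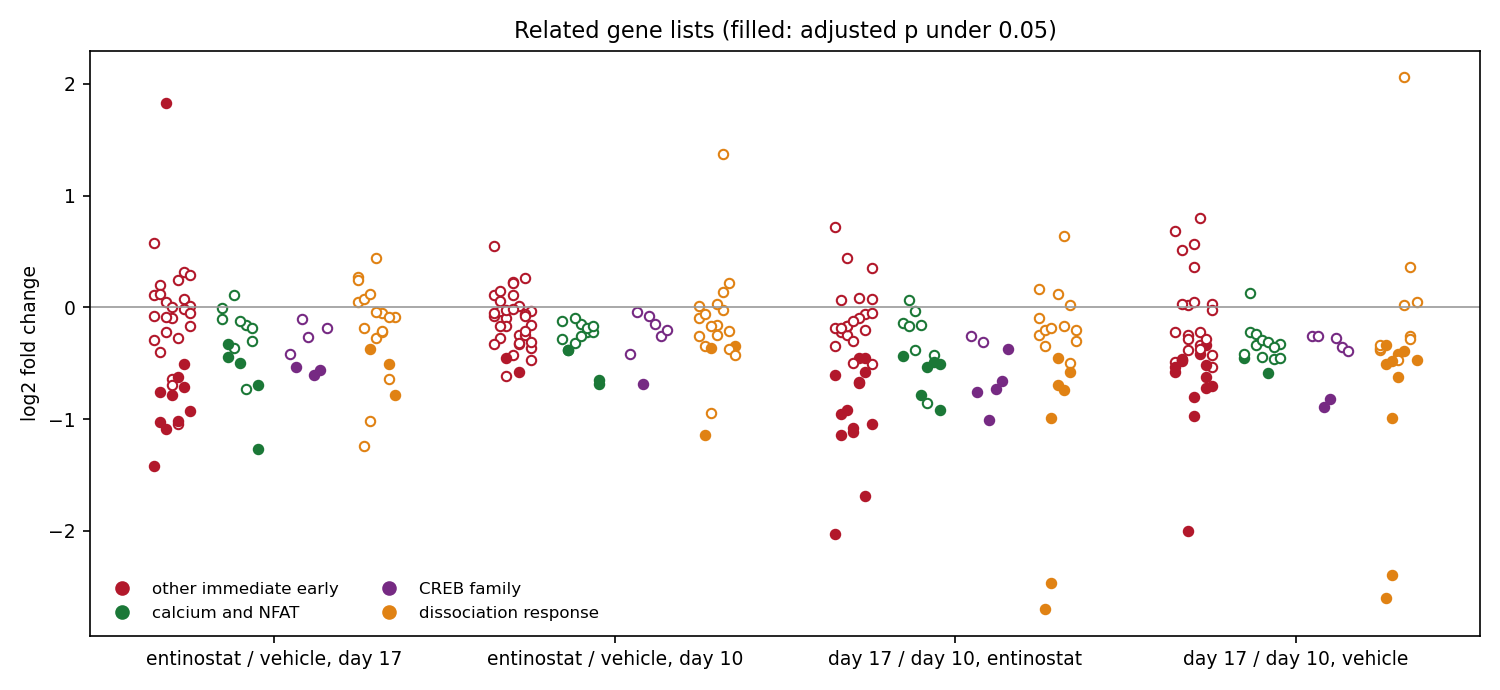
Log2 fold change (vertical axis) of each tested gene of 4 lists, in entinostat over vehicle at day 17 and day 10 and in day 17 over day 10 with entinostat and with vehicle; filled points have an adjusted p under 0.05. Filled points of other immediate early genes number 11, 2, 14 and 13 from left to right, and all but 1 lie below 0.

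Partners and targets of NR4A and EGR proteins were tested in the same way. Of 7 tested partners of NR4A receptors, 1 was higher and 2 lower with entinostat at day 17, 0 and 0 at day 10, 0 and 3 over time with entinostat, and 0 and 3 over time with vehicle. The shares lower were 28.6%, 0%, 42.9% and 42.9%, with medians of −0.16, −0.17, −0.60 and −0.49. Nr3c1, the glucocorticoid receptor, averaged 154 ± 10.7 CPM in entinostat day 17 and 270 ± 33.0 CPM in vehicle day 17 libraries (SD, n = 4 each; adjusted p = 0.000115). Of 17 EGR partners and targets, 2 were higher and 3 lower with entinostat at day 17, 0 and 5 at day 10, 3 and 4 over time with entinostat, and 0 and 3 over time with vehicle. The shares lower were 17.6%, 29.4%, 23.5% and 17.6%, and those higher 11.8% at day 17 and 17.6% over time with entinostat, with medians of −0.11, −0.24, −0.02 and −0.21. Tnfrsf9, the costimulatory receptor 4-1BB, averaged 415 ± 55.5 CPM in entinostat day 17 and 222 ± 11.3 CPM in vehicle day 17 libraries (SD, n = 4 each; log2 fold change 0.89 ± 0.12 SE, adjusted p = 4.05e-05). Rgs16, a regulator of G protein signalling, was higher at day 17 (1.26 ± 0.17 SE, adjusted p = 5.54e-05) and lower at day 10 (−0.55 ± 0.17 SE, adjusted p = 0.0383), a difference of 1.81 between days (adjusted p = 0.00267). Among the lower genes of the list, Ptger4 was at −1.32 ± 0.18 (SE, adjusted p = 7.88e-05) at day 17. At day 10 it was at −0.68 ± 0.17 (SE, adjusted p = 0.0179). Bcl2l11 was also lower, at −0.45 (adjusted p = 0.00978) at day 17 and −0.37 (adjusted p = 0.0328) at day 10. The tests of Egr2 and Egr3 stayed short of the threshold in these same comparisons.

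Genes of the pathways in which ATF3 acts were tested as well. Of 15 genes of the integrated stress response, 1 was higher and 2 lower with entinostat at day 17, 2 and 1 at day 10, 0 and 5 over time with entinostat, and 1 and 4 over time with vehicle. The shares lower were 13.3%, 6.67%, 33.3% and 26.7%, with medians of −0.10, 0.03, −0.33 and −0.13. At day 17 that share was near the 13.0% of all genes and under the 21.9% of genes of at least 16 CPM. Atf4, the central factor of that response, averaged 127 ± 6.84 CPM in entinostat day 17 and 161 ± 7.51 CPM in vehicle day 17 libraries (SD, n = 4 each; log2 fold change −0.34 ± 0.08 SE, adjusted p = 0.00958). Sesn2, a stress-induced inhibitor of mTORC1, was lower (−1.35 ± 0.19 SE, adjusted p = 7.88e-05), and Ddit4, another such inhibitor, was higher (1.72 ± 0.34 SE, adjusted p = 0.00195). Of 12 genes of the unfolded protein response, 0 were higher and 4 lower at day 17, 0 and 5 at day 10, 5 and 1 over time with entinostat, and 0 and 1 over time with vehicle. As shares, 33.3%, 41.7%, 8.33% and 8.33% were lower and 41.7% higher over time with entinostat, with medians of −0.05, −0.35, 0.15 and −0.10. Xbp1, its splicing-activated factor, was at −0.76 ± 0.11 (SE, adjusted p = 0.000165) at day 17 and at −0.72 ± 0.11 (SE, adjusted p = 0.00104) at day 10.

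Some genes known to be induced by dissociation were lower at day 17 than at day 10, as Nr4a1 was. Of 20 such genes, 9 of which are also in the list of other immediate early genes, 0 were higher and 7 lower over time with entinostat, 0 and 10 over time with vehicle, 0 and 3 with entinostat at day 17, and 0 and 3 at day 10. The shares lower over time were 35% with entinostat and 50% with vehicle, against 18.2% and 6.40% of genes of at least 16 CPM, and 13 and 10 of the 20 did not pass. Hspa1a, an inducible heat shock protein gene, averaged 32.2 ± 18.4 CPM in entinostat day 17 and 178 ± 94.8 CPM in entinostat day 10 libraries, and 65.4 ± 35.4 CPM in vehicle day 17 and 391 ± 31.9 CPM in vehicle day 10 libraries (SD, n = 4 each; adjusted p = 0.000368 with entinostat and 0.00250 with vehicle). Its near-identical copy Hspa1b can share its reads. The summed level of the 20 genes was 4295 to 6252 CPM in entinostat day 17, 4552 to 5641 CPM in vehicle day 17, 5763 to 7153 CPM in entinostat day 10 and 6809 to 7785 CPM in vehicle day 10 libraries. Vehicle libraries of the 2 days did not overlap in that sum, and entinostat libraries did, only through the shallow day 17 replicate 3. The next highest entinostat day 17 library had 4830 CPM. The part of this response in the changes of Nr4a1 and Ier2 was not tested.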

How the data were processed

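Counts per gene were deposited by the authors as whole numbers, not scaled between libraries; cDNA was made with SMART-seq v4 and libraries with Nextera XT, per the labels. Per the submitters' processing notes, STAR and mm10 were used. What counted the reads, on which annotation and with which strand setting, and whether duplicates were removed, is not given in the sources used here. Groups, days, doses and replicate numbers came from the labels.

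Genes were kept by filterByExpr at a minimum count of 10 (17414 of 24028). All 16 libraries entered a single edgeR 4.0.16 quasi-likelihood fit (R 4.3.3), with TMM scaling, a mean per group and 12 residual degrees of freedom. Benjamini-Hochberg adjustment was made over all genes tested, at 0.05, in each comparison. The model was tested on simulated data, where genes of low counts had less power. DESeq2 1.42.0, limma 3.58.1, other scalings and filters, replicate blocks and leaving out each library served as alternatives. Intervals and errors cover the spread between libraries. Whether PCR copies remain in the counts is not known. The counts of every pair of libraries in a group differed beyond sampling noise (chi-square of at least 2.97 per degree of freedom).

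The 8 genes and all lists were chosen with earlier results of these data known. Genes named are the 8, up to 4 of smallest p per list and comparison, and those of highest or lowest correlation with the 8; Fos was named after its values were seen, and shares among genes of at least 16 CPM were added then too. Exon lengths are from GENCODE vM21.

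Equal replicate numbers were checked for pairing by the correlation of same-numbered deviations from the group means. Over all tested genes the correlations of entinostat and vehicle at day 10 were 0.180, 0.0329, 0.114 and 0.0572 for numbers 1 to 4, not all over 0.1. Over genes of at least 16 CPM, a check added after seeing those, they were 0.259, 0.260, 0.240 and 0.270. Whether the numbers pair the libraries at day 10 thus depends on the genes used, and both fits are given there. In no other comparison were all 4 over 0.1 with either set.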

Additional observations from a re-analysis of the deposited data

Results flagged for a closer look

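In 2 of the 32 sets of 4 libraries (8 genes in 4 groups), a library stood far from the other 3; chance flags about 1 in 20 such sets. Nr4a2 had 333 CPM in vehicle day 10 replicate 1, with 227 to 243 CPM in the other 3. Egr1 had 369 CPM in entinostat day 10 replicate 4, with 248 to 269 CPM in the other 3. Entinostat day 10 replicate 4 was also highest for Egr2, Egr3 and Atf3 in its group.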

How the results depend on the processing

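Among values of the 8 genes recomputed under the alternatives, 921 kept their direction and side of the threshold, 102 changed sign, 17 came to pass it and 16 no longer passed. Genes above background are those whose mean CPM exceeded the 95th percentile of olfactory and vomeronasal receptor genes, and the receptor covariate is the summed level of the same genes; that covariate and cyclic loess were chosen after the data were seen. In no fit was any of the 8 called in the difference between days. The number of the 8 called with entinostat at day 17 (1) ranged from 0 to 1 with single libraries left out and was 0 with cyclic loess. At day 10 (0) it was 1 in a fit of only the groups compared. Over time with vehicle (1) it was 0 with RLE scaling, library size alone, a minimum count of 50, genes above background or cyclic loess, 2 with DESeq2 or the receptor covariate, and 0 to 3 with libraries left out. Over time with entinostat (2) it was 1 in a fit of only the groups compared and with cyclic loess, and 1 to 3 with libraries left out.

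Counts of all genes called also moved. At day 17 (3190) they ran from 1946 to 3658 with libraries left out. At day 10 (2534) they were 1332 with a minimum count of 50, 1458 in a fit of only the groups compared, 1561 with a replicate block, 1160 with a replicate block within each day, 1421 among genes above background, 770 with cyclic loess, 1689 with the receptor covariate and 910 to 4151 with libraries left out. Over time with vehicle (961) they were 490 with library size alone, 2158 with DESeq2, 636 in a fit of only the groups compared, 216 with cyclic loess and 212 to 2699 with libraries left out. For the difference between days (82) they were 130 with RLE scaling, 144 with library size alone, 563 with DESeq2, 34 with no filter, 285 with a minimum count of 50, 39 with a replicate block, 34 with the block within each day, 251 among genes above background, 138 with cyclic loess, 179 with the receptor covariate and 14 to 103 with libraries left out. The replicate block changed no call of the 8.

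Log2 fold changes that changed sign were all of genes not called. At day 17, Nr4a2 (as reported −0.19) was 0.035 with cyclic loess. Egr2 (as reported −0.023) was 0.067 with RLE scaling, 0.11 with library size alone, 0.057 in DESeq2, 0.13 with a minimum count of 50, 0.015 in a fit of only the groups compared, 0.12 in genes above background, 0.26 with cyclic loess, 0.063 with the receptor covariate and −0.51 to 0.25 with libraries left out. Ier2 (as reported 0.019) was −0.027 with no filter, −0.045 with the receptor covariate and −0.012 to 0.13 with libraries left out. Atf3 (as reported −0.10) was 0.011 with RLE scaling, 0.056 with library size alone, 0.014 in DESeq2, 0.088 with a minimum count of 50, 0.083 in genes above background, 0.10 with cyclic loess, 0.086 with the receptor covariate and −0.51 to 0.14 with libraries left out. At day 10, Egr3 (as reported −0.032) was 0.011 with RLE scaling, 0.12 with library size alone, 0.012 in DESeq2, 0.072 with a minimum count of 50, 0.059 in a fit of only the groups compared, 0.063 in genes above background, 0.062 with the receptor covariate and −0.60 to 0.22 with libraries left out. Ier2 (as reported −0.064) was 0.10 with library size alone, 0.065 with a minimum count of 50, 0.037 in a fit of only the groups compared, 0.055 in genes above background, 0.16 with cyclic loess and −0.15 to 0.012 with libraries left out. Over time with entinostat, Nr4a2 (as reported −0.19) was 0.091 with cyclic loess. Egr1 (as reported −0.12) was 0.012 with library size alone, 0.018 with a minimum count of 50, 0.013 in genes above background, 0.091 with cyclic loess and −0.21 to 0.022 with libraries left out. Atf3 (as reported 0.0083) was −0.025 with no filter and −0.46 to 0.20 with libraries left out. Over time with vehicle, Egr1 (as reported −0.087) was 0.043 with library size alone, 0.17 with cyclic loess and −0.32 to 0.041 with libraries left out. Egr3 (as reported 0.068) was −0.054 with cyclic loess and −0.15 to 0.27 with libraries left out. In the difference between days, Nr4a1 (as reported −0.047) was 0.0013 in DESeq2 and −0.18 to 0.12 with libraries left out. Nr4a2 (as reported 0.12) was −0.043 to 0.26 with libraries left out. Egr1 (as reported −0.029) was 0.025 with RLE scaling, 0.027 in DESeq2, 0.027 with a minimum count of 50, 0.022 with the block within each day, 0.030 in genes above background and −0.18 to 0.18 with libraries left out. The cause of these shifts was not tested. Counting error limits entinostat day 17 replicate 3 most, where Egr2 and Egr3 rested on 12 and 11 counts.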
